A study of Homo sapiens with 6 samples.

Results

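Expression of 10 chemokine and NF-kB feedback genes was examined by RNA-Seq in SW480, a human colorectal cancer cell line. The genes were CXCL1, CXCL2, CXCL3, CXCL8, CXCL16, CCL20, NFKBIA, TNFAIP3, RELB and BIRC3, 10 of the 19655 genes listed in at least 1 library. They were found by their Ensembl identifiers through the GENCODE annotation, a step that uses no measured value. The choice of the 10 genes was made with earlier results of these data known. The series holds 6 libraries in 3 groups of 2. Control cells carried a nontargeting short hairpin RNA (shNT), and the other groups carried 1 of 2 hairpins against PCYT2 (shPcyt2-1 and shPcyt2-2). PCYT2 is the rate-limiting enzyme of the CDP-ethanolamine route to phosphatidylethanolamine, and the series was made to find genes that respond to its loss. All 3 groups share the parental line, a lentiviral pLKO.1 vector and, per the study's methods, puromycin selection. Each library is a table of normalized values read as FPKM (fragments per kilobase of transcript, scaled to library size), and a gene that a table does not list was set to 0. The sum of all values lay between 396467 and 402612 per library. Nothing in the labels says that the 2 libraries of a group came from separate cultures, so p-values measure only the spread between these samples, which may be technical.

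NF-kB is a family of paired transcription factors that IkB proteins hold in the cytoplasm. Signals from receptors such as those for TNF and IL-1 activate the IkB kinase complex, IkB is degraded, and the freed factors switch on chemokines together with genes that shut the pathway off again. NFKBIA (IkB-alpha) and TNFAIP3 (A20) are such inhibitors, BIRC3 (cIAP2) is a ubiquitin ligase of the receptor complexes, and RELB is the partner of NFKB2 in the alternative branch. CXCL1, CXCL2, CXCL3 and CXCL8 attract neutrophils through CXCR2 and lie in 1 cluster on chromosome 4, CXCL16 is made as a membrane protein that binds CXCR6, and CCL20 binds CCR6 on lymphocytes and dendritic cells. Colorectal cancer cells are a known source of several of these chemokines.

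The sequences before the transcription starts are shown because the letters GGAATTTCC recur, on either strand, in the clustered chemokines and NFKBIA, whose values are described below. Promoter windows of RefSeq (GRCh38.p14) were found by symbol for 8 of the 10 genes, CXCL6 was added as the cluster neighbor described below, and the 120 bases before the RefSeq start are printed 5′ to 3′ on the gene's strand for 6 genes. The windows were chr4:73740449-73740568 on the plus strand for CXCL8, chr4:73869273-73869392 on the plus strand for CXCL1, chr4:74099196-74099315 on the minus strand for CXCL2, chr4:74038690-74038809 on the minus strand for CXCL3, chr4:73836558-73836677 on the plus strand for CXCL6 and chr14:35404750-35404869 on the minus strand for NFKBIA. In GENCODE the CXCL8, CXCL2 and CXCL3 genes begin inside these windows, and the CXCL6 gene begins before its window. Capitals mark the kappaB consensus on either strand or, for CXCL8, the letters GGAATTTCC.
CXCL8: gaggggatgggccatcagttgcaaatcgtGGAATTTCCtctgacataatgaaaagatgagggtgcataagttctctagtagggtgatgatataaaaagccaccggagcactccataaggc
CXCL1: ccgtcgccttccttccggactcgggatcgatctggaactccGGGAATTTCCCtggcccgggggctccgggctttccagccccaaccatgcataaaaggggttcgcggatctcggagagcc
CXCL2: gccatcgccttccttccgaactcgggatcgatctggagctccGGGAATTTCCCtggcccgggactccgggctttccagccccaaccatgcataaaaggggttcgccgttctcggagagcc
CXCL3: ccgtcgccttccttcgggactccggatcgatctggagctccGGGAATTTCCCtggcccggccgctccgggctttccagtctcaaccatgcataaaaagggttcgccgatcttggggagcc
CXCL6: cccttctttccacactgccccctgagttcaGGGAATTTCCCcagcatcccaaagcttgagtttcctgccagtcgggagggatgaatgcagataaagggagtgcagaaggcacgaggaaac
NFKBIA: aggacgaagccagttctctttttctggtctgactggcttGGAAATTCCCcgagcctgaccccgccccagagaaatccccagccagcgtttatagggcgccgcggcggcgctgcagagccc

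Searched on both strands of the 250 bases before the start, the kappaB consensus was present in CXCL1, CXCL2, CXCL3, CCL20, NFKBIA, TNFAIP3 and BIRC3, and in 9.96% of all 35116 RefSeq windows of that length. CXCL1, CXCL2 and CXCL3 held the same match in the first letters of their capitals, at positions -79 to -70, -78 to -69 and -79 to -70 from the start, and CXCL6 held it at -90 to -81. TNFAIP3 and BIRC3 each held 2 matches, and the TNFAIP3 pair lay at -67 to -58 and -55 to -46. The CXCL8 window had no match to the full consensus. It held the shorter GGAATTTCC at -91 to -83, a string that was searched after the CXCL8 window had been read, overlaps the kappaB matches of CXCL1, CXCL2, CXCL3, CXCL6 and NFKBIA and is in 0.413% of all windows. CXCL8 also held the AP-1 motif TGACTCA at -137 to -131 (searched as TGANTCA, 6.57% of windows) and TATAAA at -31 to -26 (searched on the gene's strand, 6.80% of windows). The TEAD motif GGAATG, to which the partners of YAP1 bind, was found in the CCL20 window among the 8 genes and in 11.9% of all windows. Over the printed bases, CXCL1 and CXCL2 were 93.4% identical, CXCL1 and CXCL3 90.8%, and CXCL2 and CXCL3 88.4%, whereas the other pairs among the 6 genes were 41.6% to 52.7% identical. A match to these letters describes the window and says nothing of binding.

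PCYT2 itself was lower in all 4 knockdown libraries. It stood at 11.6 and 13.8 FPKM with shNT, at 7.11 and 7.36 FPKM with shPcyt2-1 and at 6.71 and 6.18 FPKM with shPcyt2-2. The log2 fold change was -0.73 with shPcyt2-1 (standard error 0.10, limma's adjusted p = 0.00205) and -0.88 with shPcyt2-2 (standard error 0.10, limma's adjusted p = 0.00261). Fold changes here and below are of log2(FPKM + 1), a scale that understates the change of genes with low values, and p-values were adjusted over the 12756 genes with a mean of at least 0.5 FPKM.

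The cell type label was checked against marker genes. All 8 epithelial markers were listed in every library, with KRT8 the most abundant and EPCAM between 258 and 312 FPKM. The summed level of the epithelial list was 8210 and 8770 FPKM with shNT, 8430 and 8530 FPKM with shPcyt2-1, and 6260 and 6560 FPKM with shPcyt2-2. With shPcyt2-2 the keratins KRT8 (log2 -0.41), KRT18 (-0.45) and KRT19 (-0.44) fell and the intestinal cadherin CDH17 (0.50) rose, and with shPcyt2-1 the intestinal transcription factor CDX2 fell (-0.65). Markers of leukocytes, which make many chemokines, were low. PTPRC, ITGAM and S100A8 of the 11 leukocyte markers were listed in none of the libraries, the summed level lay between 19.2 and 25.9 FPKM in overlapping groups, CD68 (which many cancer lines express) made up most of it, and 0 of 3 tested markers passed with either hairpin, where 0 also had an unadjusted p under 0.05. Over all tested genes 26.7% and 12.4% passed and 40.9% and 31.1% had an unadjusted p under 0.05, so 0 of 3 does not set these markers apart. Endothelial markers summed to at most 0.769 FPKM. The summed fibroblast list was 2.28 and 2.47 FPKM with shNT, 3.64 and 4.12 FPKM with shPcyt2-1, and 3.79 and 3.58 FPKM with shPcyt2-2. Its most abundant gene, the matrix proteoglycan LUM, rose with shPcyt2-1 (log2 0.81, limma's adjusted p = 0.00192), while COL3A1 was listed in none and COL1A2 was at most 0.0305 FPKM. The part of these shifts in the results below was not tested, and in bulk libraries fewer cells of a type and less RNA per cell cannot be told apart. Without shPcyt2-2 replicate 1 the keratin calls were lost, with adjusted p of up to 0.0673, and the CDH17 call was lost without that library (adjusted p = 0.11), without shPcyt2-2 replicate 2 or without shNT replicate 2.

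In control cells the 10 genes spanned a wide range of levels. CXCL16 was highest at 20.8 ± 0.107 FPKM (SD, n = 2), above 83.7% of the 18204 genes listed in an shNT library, followed by RELB at 14 ± 1.96 FPKM (SD, n = 2) and NFKBIA at 6.28 ± 0.0273 FPKM (SD, n = 2). CXCL8 followed at 2.47 ± 0.305 FPKM (SD, n = 2), above 47.7% of listed genes, then CXCL3 at 0.972 ± 0.119 FPKM (SD, n = 2), CXCL1 at 0.549 ± 0.240 FPKM (SD, n = 2) and BIRC3 at 0.488 ± 0.0373 FPKM (SD, n = 2). TNFAIP3 at 0.257 ± 0.0334 FPKM (SD, n = 2), CXCL2 at 0.163 ± 0.0336 FPKM (SD, n = 2) and CCL20 at 0.0736 ± 0.104 FPKM (SD, n = 2) came last. Neighbors in this order had separate shNT values except CXCL1 and BIRC3, and CXCL2 and CCL20, whose libraries overlapped.

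**Figure D1:**
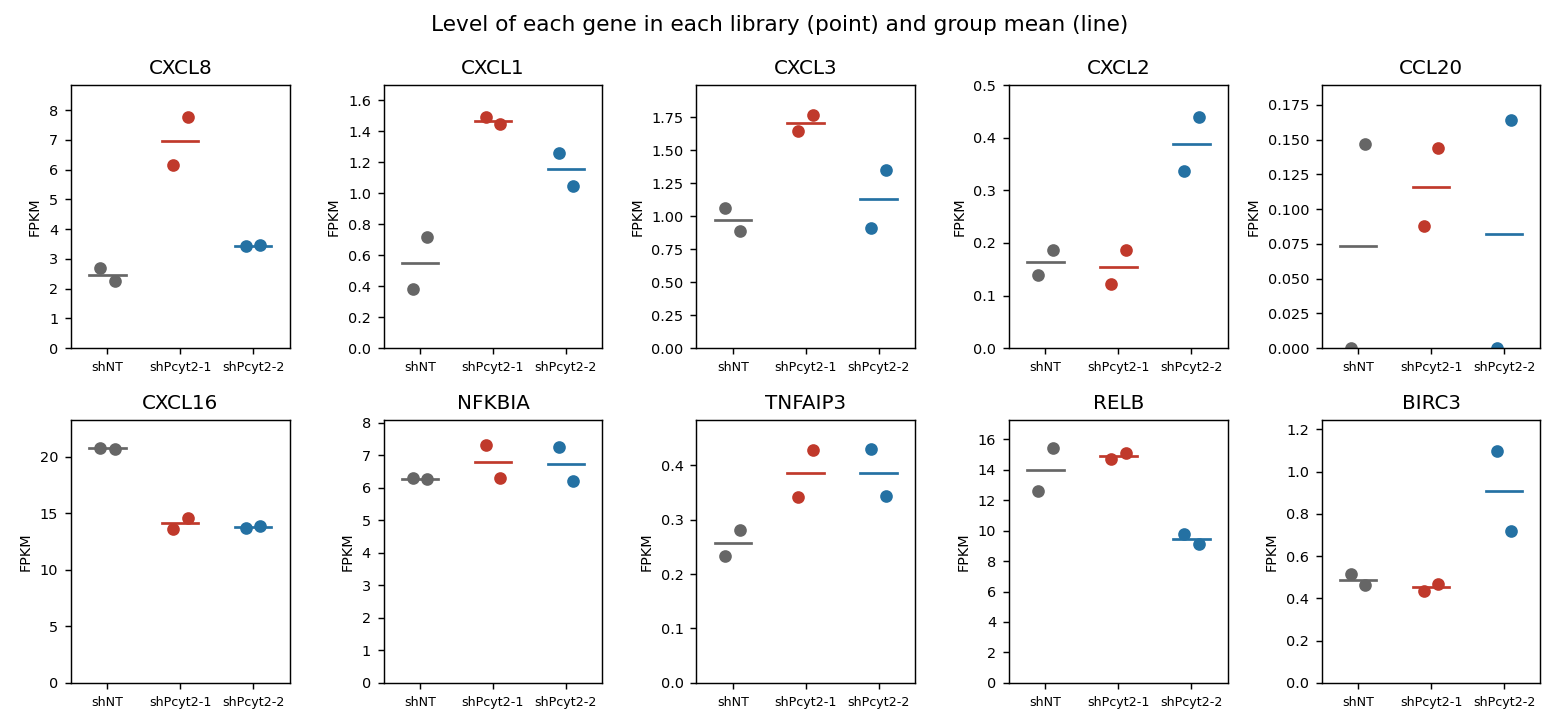
Points show the FPKM of each of the 10 genes in each of the 6 libraries and lines the mean of the 2 libraries of a group; every vertical axis starts at 0 and has its own range. CXCL8 is highest with shPcyt2-1 (6.17 and 7.77 FPKM), CXCL16 is lower with both hairpins, and RELB is lower with shPcyt2-2 (9.76 and 9.13 FPKM).

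Of the 10 genes, 7 passed the expression limit, and CXCL2, TNFAIP3 and CCL20 were under it. BIRC3 passed it only through shPcyt2-2, since its shNT and shPcyt2-1 means were under 0.5 FPKM. With shPcyt2-1 against shNT, 3 of the 7 rose (CXCL8, CXCL1 and CXCL3) and 1 fell (CXCL16), where 26.7% of all 12756 tested genes passed, 16.5% higher and 10.1% lower. With shPcyt2-2, 1 of the 7 rose (CXCL1) and 2 fell (CXCL16 and RELB), against 12.4% of all tested genes, 7.69% higher and 4.74% lower. The median log2 fold change of the 7 genes was 0.10 with shPcyt2-1 and 0.10 with shPcyt2-2, beside 0.07 and 0.04 over all tested genes. Between the hairpins, 3 of the 7 differed, with CXCL8 and RELB lower and BIRC3 higher with shPcyt2-2 than with shPcyt2-1, where 27.1% of all tested genes differed (12.9% higher and 14.2% lower). After median-ratio scaling of the libraries the split of all genes changed to 1475 higher and 1714 lower with shPcyt2-1, from 2109 and 1291, and to 760 higher and 848 lower with shPcyt2-2, from 981 and 604, while the same 4 and 3 of the 10 genes were called in the same directions. Without a filter on low values, 1 gene of the 10 passed with shPcyt2-2, CXCL16 (adjusted p = 0.036), CXCL3 was lost with shPcyt2-1 (0.0864), and BIRC3 was lost between the hairpins (0.0788) while CXCL2 passed there.

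An unadjusted limma p under 0.05 was seen for 4 of the 7 genes with shPcyt2-1, 5 with shPcyt2-2 and 4 between the hairpins, beside 40.9%, 31.1% and 40.2% of all tested genes. By position of the libraries alone, 5 of the 10 genes (4 of the 7 tested) had both shPcyt2-1 libraries above both shNT libraries and 1 (1 of the 7) had both below, beside 43.3% and 25.6% of all tested genes (69% in either direction). NFKBIA counts among the 5 by less than the last printed digit. With shPcyt2-2, 5 of the 10 (3 of the 7) lay above and 2 (2 of the 7) below, beside 35.1% and 22.4% (57.5% in either direction). Between the hairpins 2 (1 of the 7) lay higher and 4 (4 of the 7) lower with shPcyt2-2, beside 30.7% and 36.5% (67.3% in either direction). All 4 knockdown libraries exceeded both shNT libraries for 3 genes (CXCL1, CXCL8 and TNFAIP3, of which 2 were tested), and lay below them for 1 gene (CXCL16), beside 20.7% and 9.48% of all tested genes (30.2% in either direction). With so few genes, chosen with earlier results of these data known, these shares are given as a description.

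**Figure D2:**
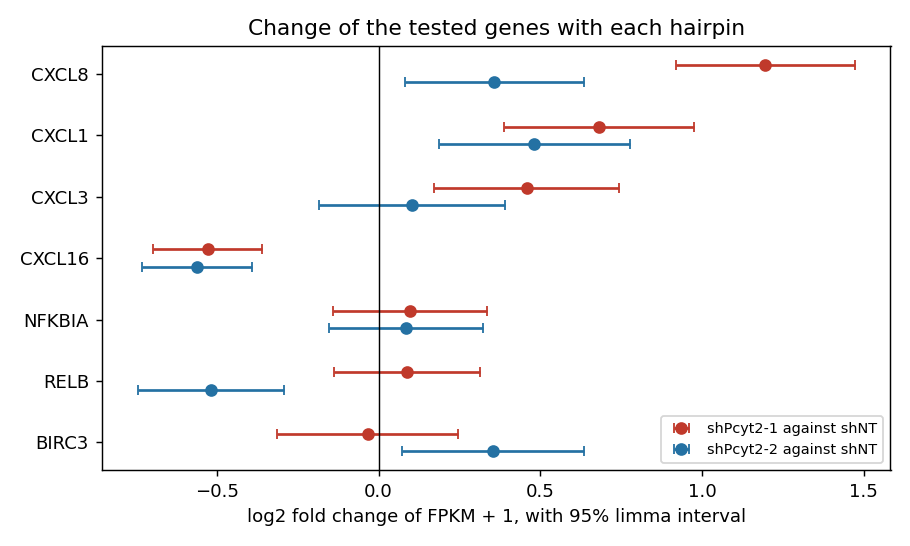
Points show the log2 fold change of FPKM + 1 of the 7 tested genes with each hairpin against shNT, and bars the 95% interval from limma. CXCL16 lies at -0.53 and -0.56 with the hairpins, whereas the CXCL8 points (1.20 and 0.36) and the RELB points (0.09 and -0.52) lie apart.

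CXCL8 (interleukin 8; ENSG00000169429, GRCh38 chromosome 4, 73740506 to 73743716) had the largest rise of the 7 tested genes with shPcyt2-1. Its level was 2.68 and 2.25 FPKM with shNT, 6.17 and 7.77 FPKM with shPcyt2-1, and 3.42 and 3.46 FPKM with shPcyt2-2. The groups did not overlap, with shPcyt2-1 highest and shNT lowest. The mean with shPcyt2-1 was 2.82 times that of shNT, a log2 fold change of 1.20 (standard error 0.12, limma's adjusted p = 0.000722). With shPcyt2-2 the ratio of means was 1.39, and the log2 fold change of 0.36 (95% interval 0.08 to 0.64, limma's adjusted p = 0.0846) did not pass. The difference between the hairpins did, at -0.84 (standard error 0.12, limma's adjusted p = 0.00165). With 1 library left out in turn, the value with shPcyt2-1 lay between 1.05 and 1.34 and the difference between -0.98 and -0.69, all past the threshold.

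CXCL1 (ENSG00000163739, chromosome 4, 73869393 to 73871242), a close relative of CXCL2 and CXCL3, rose with both hairpins. It stood at 0.379 and 0.718 FPKM with shNT, 1.49 and 1.45 FPKM with shPcyt2-1, and 1.26 and 1.05 FPKM with shPcyt2-2. All 4 knockdown libraries lay above both controls, which differed widely from each other. The ratio of means was 2.68 with shPcyt2-1 (log2 0.68, standard error 0.13, limma's adjusted p = 0.007) and 2.10 with shPcyt2-2 (log2 0.48, standard error 0.13, limma's adjusted p = 0.0439). The hairpins differed by -0.20 (95% interval -0.49 to 0.10, limma's adjusted p = 0.287). The shPcyt2-2 call was lost without either shNT library (adjusted p = 0.151 without replicate 1 and 0.0541 without replicate 2), without either shPcyt2-2 library (adjusted p = 0.192 and 0.0779), and in the fit with a replicate block (adjusted p = 0.0503).

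CXCL3 (ENSG00000163734, chromosome 4, 74036589 to 74038807) rose with shPcyt2-1. It stood at 1.06 and 0.888 FPKM with shNT, 1.65 and 1.77 FPKM with shPcyt2-1, and 0.909 and 1.35 FPKM with shPcyt2-2, where the libraries overlapped those of shNT. The ratio of means with shPcyt2-1 was 1.76 (log2 0.46, standard error 0.13, limma's adjusted p = 0.0287), and with shPcyt2-2 it was 1.16 (log2 0.10, 95% interval -0.18 to 0.39, limma's adjusted p = 0.616). The difference between the hairpins, -0.36 (95% interval -0.64 to -0.07), had a limma's adjusted p of 0.0663. The shPcyt2-1 call was lost without either shNT library (adjusted p = 0.0517 and 0.139) and without either shPcyt2-1 library (adjusted p = 0.0918 and 0.111). Without shPcyt2-2 replicate 2 the difference between the hairpins passed at -0.50 (adjusted p = 0.037).

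CXCL2 (ENSG00000081041, chromosome 4, 74097035 to 74099293) was under the expression limit and followed another pattern. It stood at 0.139 and 0.187 FPKM with shNT, 0.122 and 0.187 FPKM with shPcyt2-1, and 0.337 and 0.439 FPKM with shPcyt2-2, so that both shPcyt2-2 libraries exceeded the other 4. Tested with no filter over 19655 genes, the log2 difference was 0.27 from shPcyt2-1 (limma's adjusted p = 0.0385) and 0.26 from shNT (limma's adjusted p = 0.0851). A step common to low values, set from 429 to 494 genes per library, gives a rough estimate of fragments. Not every value is a whole multiple of it, since some lie below the step, such as the cluster gene PPBP at 0.0338 FPKM in shPcyt2-1 replicate 1. By that estimate CXCL2 rested on 3 to 7 fragments in each shNT and shPcyt2-1 library and on 12 and 15 with shPcyt2-2, and CXCL1 on 12 to 47. The transcripts of the family also share sequence, since 5.73% of 50-base windows in CXCL1, 9.24% in CXCL2 and 5.26% in CXCL3 occur in another of the CXCL1, CXCL2, CXCL3, CXCL6 and CXCL8 transcripts, and 0% did for CXCL8. Of 100-base windows 0% were shared for any of the 5 genes. How such reads were assigned is not given in the sources used here, so the levels of CXCL1, CXCL2 and CXCL3 are uncertain where reads are as short as the 50-base windows.

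CXCL6, a neutrophil chemokine that binds CXCR1 and CXCR2, lies between CXCL8 and CXCL1 and was the other tested gene of the cluster. It stood at 0.978 and 1.08 FPKM with shNT, 2.31 and 2.69 FPKM with shPcyt2-1, and 0.878 and 0.711 FPKM with shPcyt2-2. It rose with shPcyt2-1 (log2 0.78, limma's adjusted p = 0.00248) and not with shPcyt2-2 (-0.18, limma's adjusted p = 0.31), and the difference of -0.96 between the hairpins passed (limma's adjusted p = 0.000597). From the CXCL8 start, the starts of CXCL6, CXCL1, CXCL3 and CXCL2 lay 96, 129, 298 and 359 kb away. PPBP in the same stretch was listed in 1 library at 0.0338 FPKM, and CXCL5 and PF4 were listed in none. Within these 359 kb, CXCL8, CXCL6 and CXCL3 were highest with shPcyt2-1, CXCL1 was high with both hairpins and CXCL2 was highest with shPcyt2-2.

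**Figure D3:**
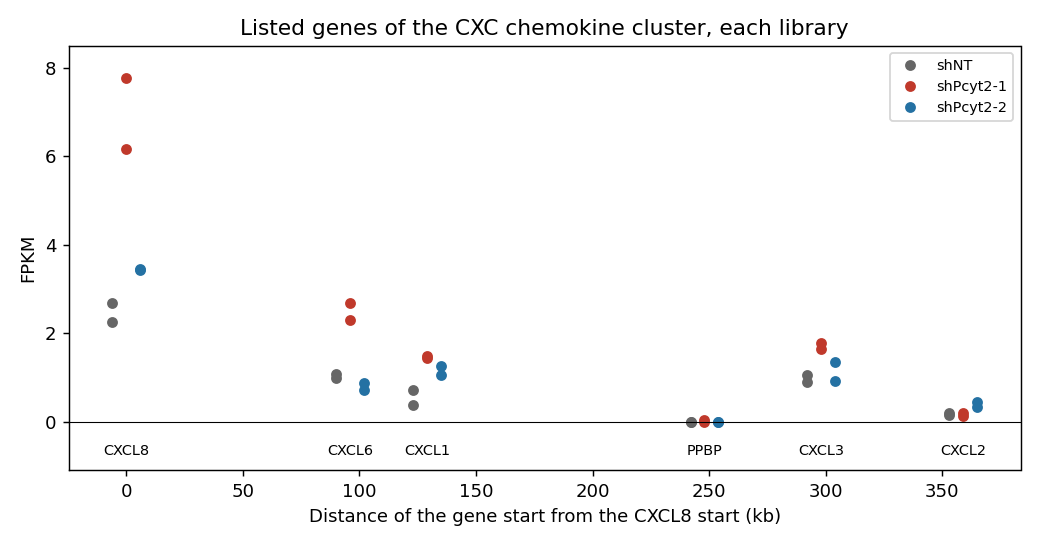
The horizontal axis gives the distance of each gene's start from the CXCL8 start in kb and the vertical axis FPKM; each point is 1 library, with the 3 groups shifted sideways around the gene's position. CXCL8, CXCL6 and CXCL3 are highest with shPcyt2-1, and CXCL2 is highest with shPcyt2-2 (0.337 and 0.439 FPKM).

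CXCL16 (ENSG00000161921, chromosome 17, 4733526 to 4739922) fell with both hairpins. It stood at 20.8 and 20.7 FPKM with shNT, 13.6 and 14.6 FPKM with shPcyt2-1, and 13.7 and 13.9 FPKM with shPcyt2-2. The 4 knockdown values were all lower than either control. The means were 0.679 and 0.663 of the shNT mean, with log2 fold changes of -0.53 for shPcyt2-1 (standard error 0.08, limma's adjusted p = 0.00233) and -0.56 for shPcyt2-2 (standard error 0.08, limma's adjusted p = 0.00483), and the hairpins differed by -0.03 (95% interval -0.20 to 0.14, limma's adjusted p = 0.784). Without shPcyt2-2 replicate 1 the value for shPcyt2-2 was -0.55 with an adjusted p of 0.0527. By the same estimate of fragments CXCL16 rested on 673 to 1459 per library.

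The proteases that release CXCL16 from the membrane, ADAM10 and ADAM17, both rose with shPcyt2-1. ADAM17 stood at 11.7 and 11.5 FPKM with shNT, 17.7 and 18.2 FPKM with shPcyt2-1 and 10.9 and 11.1 FPKM with shPcyt2-2, changing on the log2 scale by 0.58 with shPcyt2-1 (limma's adjusted p = 0.0016) and by -0.66 between the hairpins (limma's adjusted p = 0.000532). ADAM10 changed by 0.42 with shPcyt2-1 (limma's adjusted p = 0.0267), a call lost without shNT replicate 2, shPcyt2-1 replicate 1 or shPcyt2-1 replicate 2 (adjusted p of up to 0.148), and by 0.29 with shPcyt2-2 (limma's adjusted p = 0.124). The receptor of CXCL16, CXCR6, was at most 0.116 FPKM in any library.

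CCL20 (ENSG00000115009, chromosome 2, 227805739 to 227817564) was close to the detection limit. It was not listed in shNT replicate 1 and shPcyt2-2 replicate 1, where it was set to 0, and stood at 0.147 FPKM in the other shNT library, 0.0876 and 0.144 FPKM with shPcyt2-1 and 0.164 FPKM in the other shPcyt2-2 library. The groups overlapped, at an estimated 0 to 6 fragments per library, and no difference was detectable at this depth.

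Among the feedback inhibitors, NFKBIA (ENSG00000100906, chromosome 14, 35401511 to 35404749) did not pass in any comparison. It stood at 6.30 and 6.26 FPKM with shNT, 7.30 and 6.30 FPKM with shPcyt2-1, and 7.25 and 6.22 FPKM with shPcyt2-2. In each knockdown group replicate 2 was near the controls and replicate 1 was higher. The log2 fold change was 0.10 with shPcyt2-1 (95% interval -0.14 to 0.34, limma's adjusted p = 0.517) and 0.09 with shPcyt2-2 (95% interval -0.15 to 0.32, limma's adjusted p = 0.62). Without shPcyt2-2 replicate 1 the latter was -0.0113.

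TNFAIP3 (ENSG00000118503, chromosome 6, 137867188 to 137883312), which edits ubiquitin chains on the signaling complexes, was under the expression limit. It stood at 0.234 and 0.281 FPKM with shNT, 0.342 and 0.428 FPKM with shPcyt2-1, and 0.430 and 0.343 FPKM with shPcyt2-2. All 4 knockdown libraries lay above both controls, and the ratio of means was 1.50 for either hairpin. With no filter, the log2 changes of 0.14 and 0.14 had unadjusted limma p of 0.0476 and 0.0458 and adjusted p of 0.17 and 0.22.

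RELB (ENSG00000104856, chromosome 19, 45001430 to 45038198) fell with shPcyt2-2. It stood at 12.6 and 15.4 FPKM with shNT, 14.7 and 15.1 FPKM with shPcyt2-1, and 9.76 and 9.13 FPKM with shPcyt2-2, below the other 4 libraries. The shPcyt2-2 mean was 0.673 of the shNT mean (log2 -0.52, standard error 0.10, limma's adjusted p = 0.0151), while shPcyt2-1 changed by 0.09 (95% interval -0.14 to 0.31, limma's adjusted p = 0.545). The hairpins differed by -0.61 (standard error 0.10, limma's adjusted p = 0.00294), and this difference passed without each library in turn. The shPcyt2-2 call against shNT was lost without shNT replicate 2 (adjusted p = 0.071), shPcyt2-2 replicate 1 (adjusted p = 0.0892) or shPcyt2-2 replicate 2 (adjusted p = 0.0731).

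BIRC3 (ENSG00000023445, chromosome 11, 102317450 to 102339403) was highest with shPcyt2-2. It stood at 0.514 and 0.462 FPKM with shNT, 0.437 and 0.470 FPKM with shPcyt2-1, and 1.1 and 0.718 FPKM with shPcyt2-2. Its mean over all libraries, 0.618 FPKM, reached the limit of 0.5 FPKM through shPcyt2-2 (mean 0.911 FPKM). The shNT and shPcyt2-1 means, 0.488 and 0.453 FPKM, were under that limit, so tests of BIRC3 are not independent of the filter. The log2 fold change was 0.35 with shPcyt2-2 (95% interval 0.07 to 0.64, limma's adjusted p = 0.0912) and -0.03 with shPcyt2-1 (limma's adjusted p = 0.865), and the hairpins differed by 0.39 (standard error 0.12, limma's adjusted p = 0.0464). That difference was lost without either shNT library (adjusted p = 0.0606 and 0.0608), either shPcyt2-1 library (adjusted p = 0.17 and 0.124) or shPcyt2-2 replicate 1 (log2 0.24, adjusted p = 0.18), with a pseudocount of 0.1 (adjusted p = 0.0523), with no filter (adjusted p = 0.0788) and with only the 2 groups compared in the fit (adjusted p = 0.0604). BIRC3 starts 84 kb after the end of YAP1 on the same strand. Its neighbor BIRC2 (cIAP1), 114 kb from YAP1, stood at 7.47 and 6.38 FPKM with shNT, 9.73 and 8.23 FPKM with shPcyt2-1, and 7.39 and 5.70 FPKM with shPcyt2-2, and did not pass with either hairpin against shNT (log2 0.33 and -0.08, limma's adjusted p = 0.092 and 0.732), while the difference of -0.41 between the hairpins did (limma's adjusted p = 0.048). That difference was -0.30 without shPcyt2-1 replicate 1 (adjusted p = 0.248) and -0.25 without shPcyt2-2 replicate 2 (adjusted p = 0.261).

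With the 4 knockdown libraries pooled against the 2 controls, 0 of the 7 tested genes passed and 3 (CXCL1, CXCL8 and CXCL16) had an unadjusted limma p under 0.05, where 0.00784% of all tested genes passed and 16.7% had an unadjusted p under 0.05. The gene that passed was RGPD6, lower in all 4 knockdown libraries, which belongs to a family of near-identical copies and is uncertain for that reason. Its call was lost without any 1 of 5 libraries, all but shPcyt2-1 replicate 1 (adjusted p of up to 0.337). CXCL16 changed by -0.54 (limma's adjusted p = 0.129), CXCL1 by 0.58 (limma's adjusted p = 0.155) and CXCL8 by 0.78 (limma's adjusted p = 0.249). Averaging the hairpins within the fit of 3 groups instead, these 3 genes passed (adjusted p = 0.00392, 0.0133 and 0.00517), as did 2142 of all tested genes. The fit with 2 groups counts the difference between the hairpins as spread, and the fit with 3 groups does not. For CXCL8 the standard error was 0.29 in the former, beside 0.12 for either hairpin in the latter. The pooled count of 0 therefore does not show that a shared change was absent.

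The other genes of the pathway were taken by list. Over all tested genes 26.7% passed with shPcyt2-1 and 12.4% with shPcyt2-2, the shares to set beside the calls of each list. Of the NF-kB and IkB family, 8 of 9 genes were tested, and with shPcyt2-1 the IkB protein NFKBIB rose (log2 0.25, limma's adjusted p = 0.034) and the atypical IkB protein BCL3 fell (-0.54, limma's adjusted p = 0.014). With shPcyt2-2 NFKBIB fell (-0.30, limma's adjusted p = 0.0304). NFKBIB stood at 20.9 and 21.0 FPKM with shNT, 24.2 and 26.0 FPKM with shPcyt2-1 and 16.6 and 17.1 FPKM with shPcyt2-2, so the hairpins lay on opposite sides of the control. BCL3 stood at 7.58 and 6.73 FPKM with shNT, 4.06 and 5.24 FPKM with shPcyt2-1 and 8.28 and 9.40 FPKM with shPcyt2-2. Between the hairpins NFKBIB differed by -0.55 (limma's adjusted p = 0.000985) and BCL3 by 0.81 (limma's adjusted p = 0.00198). RELA, the activating subunit of the classical pathway, was between 45.4 and 51.1 FPKM in all libraries, and NFKB2, the partner of RELB, between 19.3 and 25.2 FPKM, and neither passed. The calls against shNT were lost when single libraries were left out, for NFKBIB with shPcyt2-1 without any of the 4 libraries compared (adjusted p of up to 0.234), for NFKBIB with shPcyt2-2 without 5 of the 6 libraries, all but shNT replicate 1 (up to 0.148), and for BCL3 without shNT replicate 1 or shPcyt2-1 replicate 1 (up to 0.109), whereas both differences between the hairpins passed without each library. After median-ratio scaling NFKBIB with shPcyt2-1 was 0.18 and did not pass (adjusted p = 0.131).

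All 22 upstream signaling genes were tested. With shPcyt2-1, 1 rose and 1 fell, beside 16.5% and 10.1% of all tested genes, and with shPcyt2-2, 1 rose and 2 fell, beside 7.69% and 4.74%. With shPcyt2-1 the adaptor TRAF5 rose (log2 0.41, limma's adjusted p = 0.0224) and the TNF receptor adaptor TRADD fell (-0.61, limma's adjusted p = 0.00399). TRADD stood at 17.1 and 20.7 FPKM with shNT, 12.2 and 11.9 FPKM with shPcyt2-1 and 19.2 and 17.3 FPKM with shPcyt2-2. With shPcyt2-2, MAP3K14 (NIK, the kinase of the alternative branch) rose (0.52, limma's adjusted p = 0.0234), and IKBKG (the scaffold of the IkB kinase complex) and IRAK1 (a kinase of the IL-1 receptor complex) fell (-0.42 and -0.37, limma's adjusted p = 0.0242 and 0.0123). MAP3K14 stood at 2.75 and 3.19 FPKM with shNT, 3.24 and 3.32 FPKM with shPcyt2-1, and 4.24 and 5.15 FPKM with shPcyt2-2. The list's median was 0.05 with shPcyt2-1 and 0.00 with shPcyt2-2. The TRADD call passed without each library, whereas the others were lost without the following: TRAF5 without shNT replicate 2 or shPcyt2-1 replicate 1 (adjusted p of up to 0.175), MAP3K14 without any library of its comparison (up to 0.0908), IKBKG without shNT replicate 2 or either shPcyt2-2 library (up to 0.111), and IRAK1 without either shPcyt2-2 library (up to 0.0991).

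Of 21 receptors that feed the pathway, 10 were tested. With shPcyt2-1 TNFRSF1A (the main TNF receptor) rose (log2 0.23, limma's adjusted p = 0.0292), and the lymphotoxin receptor LTBR (-0.28, limma's adjusted p = 0.0423) and the bacterial sensor NOD2 (-0.45, limma's adjusted p = 0.0204) fell. With shPcyt2-2 the IL-1 receptor partner IL1RAP rose (0.45, limma's adjusted p = 0.0439), from 0.346 and 0.190 FPKM to 0.843 and 0.616 FPKM. Both shNT values of IL1RAP were under the limit of 0.5 FPKM, which its mean reached through knockdown libraries, so this call is not independent of the filter. NOD2 stood at 0.749 and 0.909 FPKM with shNT, 0.317 and 0.357 FPKM with shPcyt2-1 and 1.16 and 0.929 FPKM with shPcyt2-2. IL1R1, which binds IL-1, was at most 0.0828 FPKM, and TNF was listed in 1 library at 0.0149 FPKM. With single libraries left out all 4 calls were lost at least once, TNFRSF1A without shNT replicate 1 or either shPcyt2-1 library (adjusted p of up to 0.206), LTBR without any of its 4 libraries (up to 0.205), NOD2 without shNT replicate 2 or either shPcyt2-1 library (up to 0.114) and IL1RAP without 5 of the 6 libraries, all but shNT replicate 1 (up to 0.223). After median-ratio scaling TNFRSF1A did not pass (adjusted p = 0.12).

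Of the other feedback genes, 12 of 15 were tested. With shPcyt2-1 RNF11, a subunit of the A20 complex, and the deubiquitinase OTULIN rose (log2 0.59 and 0.39, limma's adjusted p = 0.0033 and 0.0154), and the A20-binding proteins TNIP1 and TNIP2 fell (-0.76 and -0.44, limma's adjusted p = 0.000414 and 0.00617). TNIP1 stood at 43.9 and 44.7 FPKM with shNT, 24.8 and 26.9 FPKM with shPcyt2-1 and 37.9 and 38.6 FPKM with shPcyt2-2, and the hairpins differed by 0.55 (limma's adjusted p = 0.00078). With shPcyt2-2, 1 of the 12 passed, OTUD7B, another deubiquitinase, beside 12.4% of all tested genes (-0.36, limma's adjusted p = 0.0435). Its call was lost without each of the 6 libraries (adjusted p of up to 0.151), that of OTULIN without shNT replicate 2 or either shPcyt2-1 library (up to 0.107) and that of TNIP2 without shPcyt2-1 replicate 1 (0.0637).

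**Figure D4:**
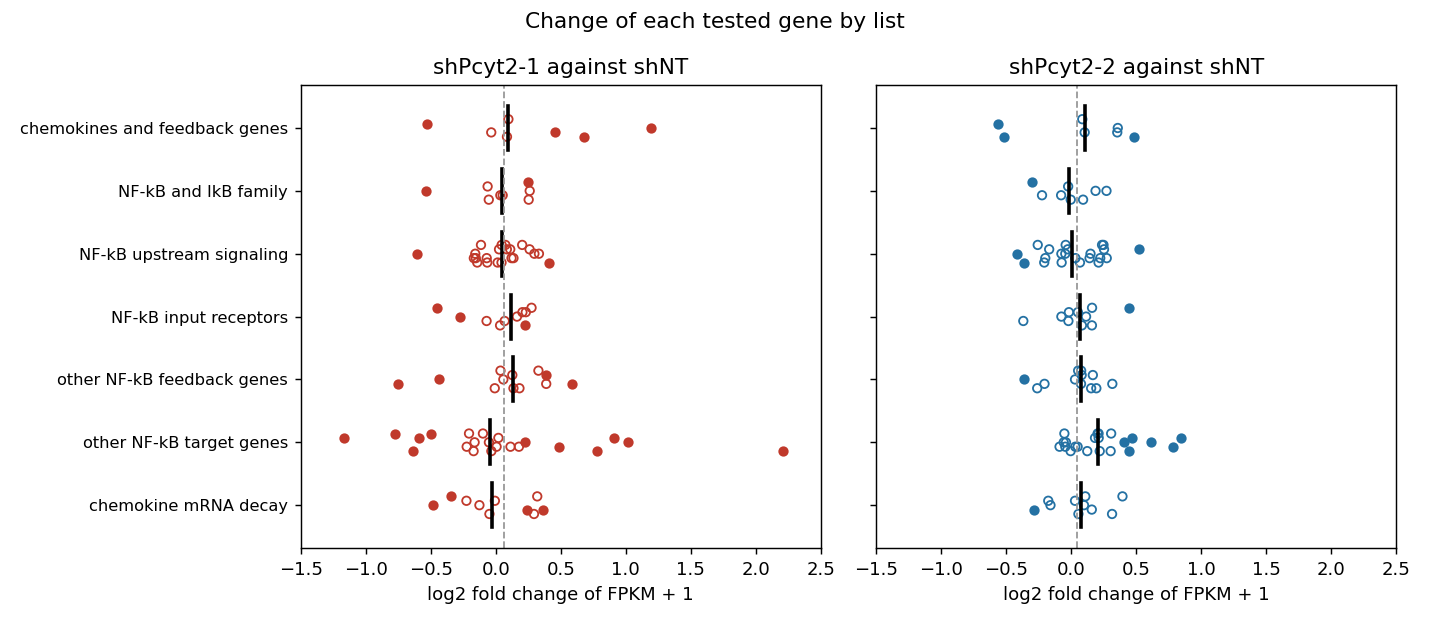
Each point is 1 tested gene, placed by its log2 fold change of FPKM + 1 against shNT, with filled points for limma's adjusted p under 0.05; thick bars are list medians and the dashed line is the median of all tested genes. Each of the 7 plotted lists holds points on both sides of the dashed line, and the other target genes spread most with shPcyt2-1, from -1.16 to 2.21.

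Among 40 other NF-kB target genes, 22 were tested. With shPcyt2-1, 6 rose and 5 fell, and with shPcyt2-2, 6 rose and 0 fell (9 of the 22 had an unadjusted p under 0.05). Without either shPcyt2-2 library the rises of IL23A, F3, SAA1, ICAM1 and NUAK2 with shPcyt2-2 were lost, and that of TNFAIP2 was kept. Over all tested genes 16.5% were higher and 10.1% lower with shPcyt2-1, and 7.69% higher and 4.74% lower with shPcyt2-2, where 31.1% had an unadjusted p under 0.05. The list's median was -0.04 with shPcyt2-1 and 0.21 with shPcyt2-2, beside 0.07 and 0.04 over all tested genes. PLAU, the urokinase protease, stood at 1.86 and 1.58 FPKM with shNT, 12.2 and 10.9 FPKM with shPcyt2-1, and 2.33 and 2.36 FPKM with shPcyt2-2, and had the largest rise of the list (log2 2.21, limma's adjusted p = 3.04e-05) with a difference of -1.91 between the hairpins (limma's adjusted p = 2.21e-05). SOD2, the mitochondrial superoxide dismutase, stood at 10.5 and 11.3 FPKM with shNT, 20.7 and 18.4 FPKM with shPcyt2-1, and 11.6 and 10.2 FPKM with shPcyt2-2. It rose with shPcyt2-1 (0.78, limma's adjusted p = 0.00128) and differed by -0.79 between the hairpins (limma's adjusted p = 0.000678). TNC, the matrix protein tenascin C, rose with shPcyt2-1 (0.91, limma's adjusted p = 0.00127) and differed by -0.73 between the hairpins (limma's adjusted p = 0.00196).

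Other targets went the opposite way. SAA1, an acute phase protein, stood at 2.66 and 2.54 FPKM with shNT, 0.696 and 0.522 FPKM with shPcyt2-1, and 4.06 and 3.92 FPKM with shPcyt2-2. It fell with shPcyt2-1 (log2 -1.16, limma's adjusted p = 0.000424) and rose with shPcyt2-2 (0.47, limma's adjusted p = 0.0244), and the hairpins differed by 1.63 (limma's adjusted p = 4.27e-05). Its near-identical neighbor SAA2, counted among the 5 that fell, was not listed in either shPcyt2-1 library and was set to 0 there, against 0.514 and 0.930 FPKM with shNT and 1.12 and 1.11 FPKM with shPcyt2-2, and reads that fit both genes make these values uncertain. TNFAIP2, a TNF-induced gene, stood at 3.35 and 3.99 FPKM with shNT, 2.09 and 2.11 FPKM with shPcyt2-1, and 7.30 and 7.40 FPKM with shPcyt2-2. It fell with shPcyt2-1 (-0.59, limma's adjusted p = 0.00508), rose with shPcyt2-2 (0.84, limma's adjusted p = 0.00323) and differed by 1.43 between the hairpins (limma's adjusted p = 7.07e-05). The death ligand TNFSF10 (-0.64, limma's adjusted p = 0.0125) and the cytokine LIF (-0.50, limma's adjusted p = 0.00433) also fell with shPcyt2-1. The SAA1 call with shPcyt2-2 was lost without any of the 4 libraries compared (adjusted p of up to 0.122) and that of TNFSF10 without shNT replicate 2 (0.0657).

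IL23A, a cytokine subunit, and F3 (tissue factor) rose with both hairpins. IL23A stood at 2.61 and 1.87 FPKM with shNT, 5.49 and 5.54 FPKM with shPcyt2-1, and 4.04 and 3.82 FPKM with shPcyt2-2 (log2 1.02 and 0.61, limma's adjusted p = 0.00126 and 0.0167). F3 changed by 0.49 and 0.78 (limma's adjusted p = 0.0327 and 0.0123). BCL2L1, which protects from apoptosis, rose with shPcyt2-1 (0.23, limma's adjusted p = 0.0244), and the adhesion molecule ICAM1 (0.44, limma's adjusted p = 0.0378) and the kinase NUAK2 (0.41, limma's adjusted p = 0.0486) rose with shPcyt2-2. The calls on IL23A and F3 with shPcyt2-2 were lost without shNT replicate 2 or either shPcyt2-2 library (adjusted p of up to 0.111 and 0.0792), that on F3 with shPcyt2-1 without shNT replicate 2 or either shPcyt2-1 library (up to 0.189), and that on BCL2L1 without shNT replicate 1 or either shPcyt2-1 library (up to 0.153). ICAM1 was lost without any of its 4 libraries (up to 0.182) and NUAK2 without 5 of the 6, all but shNT replicate 1 (up to 0.255). After median-ratio scaling BCL2L1 (adjusted p = 0.167) and F3 (0.0521) with shPcyt2-1 and NUAK2 with shPcyt2-2 (0.0592) did not pass.

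Proteins that bind chemokine mRNA and set its decay were described because they act on CXCL1, CXCL2, CXCL3 and CXCL8 transcripts. Of 11 genes, 10 were tested. With shPcyt2-1 the decay factor ZFP36L1 and the stabilizing protein ELAVL1 rose (log2 0.36 and 0.24, limma's adjusted p = 0.00867 and 0.032), and the decay factor ZFP36L2 and the RNA-binding protein ARID5A fell (-0.48 and -0.34, limma's adjusted p = 0.00222 and 0.033). With shPcyt2-2 ZFP36L1 fell (-0.29, limma's adjusted p = 0.0353). ZFP36L1 stood at 59.4 and 56.7 FPKM with shNT, 71.9 and 77.9 FPKM with shPcyt2-1 and 45.2 and 49.6 FPKM with shPcyt2-2, with a difference of -0.65 between the hairpins (limma's adjusted p = 0.000514), while ZFP36 itself was between 15.4 and 19.3 FPKM and did not pass. The ZFP36L2 call passed without each library. The ZFP36L1 call with shPcyt2-1 was lost without shPcyt2-1 replicate 2 (adjusted p = 0.0612), its call with shPcyt2-2 without any of the 4 libraries compared (up to 0.197), that of ELAVL1 likewise (up to 0.236) and that of ARID5A without shNT replicate 2 or either shPcyt2-1 library (up to 0.171). After median-ratio scaling ELAVL1 had an adjusted p of 0.11 and ZFP36L1 with shPcyt2-1 of 0.0517.

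Few other chemokines were expressed. Of 36, 17 were listed in at least 1 library and 2 were tested, CXCL6 and CCL26, and CCL26 did not pass with either hairpin (limma's adjusted p = 0.282 and 0.5). CCL24, an eosinophil attractant, was under the limit and stood at 0.739 and 0.709 FPKM with shNT, 0.118 and 0.0714 FPKM with shPcyt2-1, and 0.610 and 0.519 FPKM with shPcyt2-2. It rested on an estimated 1 fragment in each shPcyt2-1 library and on 7 to 11 in the others. CX3CL1, CXCL14 and CCL28 were also under the limit. CX3CL1 stood at 0.432 and 0.36 FPKM with shNT, 0.25 and 0.0902 FPKM with shPcyt2-1, and 0.651 and 0.735 FPKM with shPcyt2-2. CXCL14 stood at 0.343 and 0.576 FPKM, 0.0823 and 0.0237 FPKM, and 0.493 and 0.522 FPKM in the same order. CCL28 overlapped between each hairpin and shNT, at 0.238 to 0.463 FPKM. Of 22 chemokine receptors, 3 were tested. CXCR4 lay between 3.17 and 4.01 FPKM and did not pass. CCR7 stood at 0.685 and 0.775 FPKM with shNT, 0.300 and 0.356 FPKM with shPcyt2-1, and 0.980 and 0.910 FPKM with shPcyt2-2, fell with shPcyt2-1 (log2 -0.38, limma's adjusted p = 0.029) and differed by 0.55 between the hairpins (limma's adjusted p = 0.00581). CXCR1, a receptor of CXCL8, stood at 0.660 and 0.694 FPKM with shNT, 0.305 and 0.381 FPKM with shPcyt2-1 and 1.31 and 0.953 FPKM with shPcyt2-2, with a difference of 0.66 between the hairpins (limma's adjusted p = 0.00432), while CXCR2, which the neutrophil chemokines share, was at most 0.0146 FPKM. The CCR7 call against shNT was lost without any of the 4 libraries compared (adjusted p of up to 0.173).

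Of 9 reference genes often used for normalization, 4 rose with shPcyt2-1 (TBP, HPRT1, GAPDH and ACTB) and 3 with shPcyt2-2 (B2M, TBP and HPRT1), beside 16.5% and 7.69% of all tested genes. Their median log2 fold change was 0.24 and 0.12, beside 0.07 and 0.04 over all tested genes. TBP changed by 0.50 and 0.42 (limma's adjusted p = 0.0107 and 0.0355), HPRT1 by 0.33 and 0.32 (limma's adjusted p = 0.0118 and 0.0257), GAPDH by 0.26 with shPcyt2-1 (limma's adjusted p = 0.00813), ACTB by 0.22 with shPcyt2-1 (limma's adjusted p = 0.021) and B2M by 0.91 with shPcyt2-2 (limma's adjusted p = 0.00901). After median-ratio scaling GAPDH (adjusted p = 0.2) and ACTB (0.281) with shPcyt2-1 and TBP (0.0568) and HPRT1 (0.0566) with shPcyt2-2 no longer passed. All 7 of these calls were also lost without at least 1 library (adjusted p of up to 0.175).

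As a description, the genes whose log2 values followed CXCL8 most closely over the 6 libraries, among 456 genes that varied by at least 1 on that scale, were E2F7 (Pearson r = 0.985), CLCN5 (0.98), EREG (0.97), TGFBR2 (0.967) and GZMB (0.965). The points share 3 groups of 2 libraries, so each r with CXCL8 mostly reflects the 3 group means. EREG, the growth factor epiregulin, stood at 11.4 and 8.85 FPKM with shNT, 53.2 and 52.1 FPKM with shPcyt2-1, and 12.3 and 12.9 FPKM with shPcyt2-2. The genes most like NFKBIA were COMMD3-BMI1 (0.991), RGMA (0.92), GTF2IP4 (0.872), MCM8 (0.868) and RPL36A-HNRNPH2 (0.83), of which COMMD3-BMI1 and RPL36A-HNRNPH2 are readthrough genes that overlap their neighbors. COMMD3-BMI1 stood at 0.0584 and 0.0182 FPKM with shNT, 3.29 and 0.177 FPKM with shPcyt2-1, and 2.17 and 0.0202 FPKM with shPcyt2-2. Like NFKBIA, it was higher in replicate 1 of each knockdown group, so its r rests on differences within groups. RPL36A-HNRNPH2 was listed at 1.44, 1.85 and 3.37 FPKM in replicate 1 of the 3 groups and was not listed in replicate 2 of any.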

How the data were processed

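RNA-Seq values of 6 SW480 libraries (shNT, shPcyt2-1 and shPcyt2-2, 2 each) were used. The authors deposited 1 table per library with an Ensembl identifier and a normalized value, which was read as FPKM since values are not whole and their sums differ between libraries. TPM over part of the genes cannot be told apart from it. The aligner, counter and annotation are not given in the sources used here. The submitters' processing notes name the builds GRCh38, GRCm38 and mm10 without roles, and the labels name NEBNext Ultra and SMARTer kits without tying either to a library. The study's methods name a test for counts, and limma took its place because these values are not counts.

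Rows of the same identifier were summed (115 of 21539 identifiers), and 1045 sets of identifiers that carried the same values throughout were each taken as 1 gene, giving 19655 genes. None of the 10 genes was in such a set. GENCODE release 29 (GRCh38) gave names and positions, and RefSeq (GRCh38.p14) the promoters. The 12756 genes whose mean reached 0.5 entered limma 3.58.1 (R 4.3.3) as log2(FPKM + 1), using a trend of variance on mean, and p-values were adjusted by Benjamini-Hochberg with a threshold of 0.05. Single hairpins and their difference came from a fit with 3 groups, the pooled comparison from a fit with 2. The fits were tested on simulated data, and the outcome is not reported here.

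The depth in reads is unknown. A step was set from low values, although some listed values lie below it (the lowest were 1e-06 to 2e-06 FPKM). Its reciprocal, a relative depth, ranged from 17.7 (shPcyt2-1 replicate 1) to 25.2. Estimated fragments are FPKM times exon length in kb divided by the step. For each list, up to 4 genes higher and up to 4 lower among those that passed were named by size of change, and the remaining called genes, single levels and the GGAATTTCC string were chosen after their values were seen. The 10 genes and all lists were chosen with earlier results of these data known. Alternatives were a pseudocount of 0.1, no filter, a mean of at least 1, a replicate block, median-ratio scaling, no trend, robust variance, the highest of repeated rows, the groups in the fit and each library left out in turn. Figures were drawn with matplotlib 3.10.9.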

Additional observations from a re-analysis of the deposited data

Results flagged for a closer look

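These results stood out because the effects of the hairpins differed by limma's test of the difference itself (shPcyt2-2 minus shPcyt2-1, log2, adjusted over 12756 genes), where 27.1% of all tested genes differed. Of the 10 genes, CXCL8 (-0.84), RELB (-0.61) and BIRC3 (0.39) did so. BIRC3 entered the test only through its shPcyt2-2 values, so its difference is not independent of the expression limit. The CXCL8 and RELB differences passed without each library in turn, whereas that of BIRC3 was lost in 5 of 6 such fits (adjusted p of up to 0.18). For CXCL8, RELB and BIRC3 the libraries of the hairpins did not overlap, as for 67.3% of all tested genes in either direction. These genes were picked because the hairpins differed, so this separation adds no support to the difference.

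Of the 113 tested genes in the other lists, 44 passed this test. Among those whose difference is given above, CXCL6 (-0.96), PLAU (-1.91), SOD2 (-0.79), TNC (-0.73), BIRC2 (-0.41), ZFP36L1 (-0.65), ADAM17 (-0.66) and NFKBIB (-0.55) were lower with shPcyt2-2 than with shPcyt2-1. BCL3 (0.81), TNIP1 (0.55), TNFAIP2 (1.43), SAA1 (1.63), CXCR1 (0.66) and CCR7 (0.55) were higher with shPcyt2-2.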

How the results depend on the processing

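Of the 10 calls on these genes, 5 were lost without at least 1 library. The number of the 10 genes called was 4 with shPcyt2-1 (3 to 4 without 1 library), 3 with shPcyt2-2 (0 to 3), 3 between the hairpins (2 to 4) and 0 pooled (0 in each such fit). It was 0 with shPcyt2-2 without shPcyt2-2 replicate 1. Without a filter 1 gene was called with shPcyt2-2, and taking the mean of the hairpins in the fit with 3 groups gave 3 pooled. Small values changed sign: with 1 library left out in turn, CXCL3 with shPcyt2-2 ran from -0.0456 (shPcyt2-2 replicate 2 left out) to 0.252, NFKBIA with shPcyt2-2 from -0.0113 (shPcyt2-2 replicate 1) to 0.182, RELB with shPcyt2-1 from -0.0469 (shNT replicate 1) to 0.221, CXCL16 between the hairpins from -0.0812 to 0.0172 (shPcyt2-1 replicate 2), and NFKBIA between the hairpins from -0.109 to 0.0841 (shPcyt2-2 replicate 2; 0.0804 for shPcyt2-1 replicate 1). With median-ratio scaling the last was 0.00543. The cause was not tested.

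Of all tested genes, 3400 passed with shPcyt2-1 (1844 without a filter, 1147 to 3256 without 1 library), 1585 with shPcyt2-2 (124 without a filter, 1027 without a trend, 125 to 1893 without 1 library), 3463 between the hairpins (1662 to 3785 without 1 library) and 1 pooled (7 without a filter, 0 with a pseudocount of 0.1, a mean of at least 1 or the block, and 2142 as the mean of the hairpins). Deviations of same-numbered libraries from their group means correlated at r = 0.0027 between shNT and shPcyt2-1, 0.0619 between shNT and shPcyt2-2 and 0.191 between the hairpins, so the numbers were not taken to pair the samples. With the replicate block 4, 2, 3 and 0 of the 10 genes were called with shPcyt2-1, with shPcyt2-2, between the hairpins and pooled. Over all tested genes the block raised the calls to 3884 with shPcyt2-1, 2029 with shPcyt2-2 and 3869 between the hairpins. The reason for that rise was not tested. Of 71 calls on other genes checked the same way, 41 were lost without at least 1 library. Estimated fragments limit CXCL2 (3 to 15 per library) and CCL20 (0 to 6), and, outside the 10 genes, CCL24 (1 to 11).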
